A study of Mus musculus with 2 samples.

Results

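The 10 genes described here were the members of the mouse MHC class II presentation machinery, taken by name out of the 32228 genes listed in both count matrices. They were the classical chains H2-Aa, H2-Ab1 and H2-Eb1, the invariant chain Cd74, the peptide editor chains H2-DMa, H2-DMb1 and H2-DMb2, the H2-O chains H2-Oa and H2-Ob, and Ciita. Their unique molecular identifiers (UMIs, each marking 1 captured transcript) were summed over barcodes with at least 1000 UMIs, at least 500 genes and under 5% mitochondrial UMIs, in each cell class and library. A cell was put in a class when at least 4 genes of that class's marker list were detected and no other list was detected to a larger share. Some further cells were set aside, as given with the processing below. No member was in any marker list, so the levels below were not used to form the classes.

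Class II molecules carry peptides from the endosomes of antigen-presenting cells to CD4+ T cells. The α chain H2-Aa and the β chain H2-Ab1 form the I-A heterodimer, and H2-Eb1 is a β chain of I-E, whose α chain is not made in C57BL/6 mice. Cd74 holds new class II dimers and guides them to endosomes, H2-DM removes the remaining Cd74 peptide and helps load other peptides, and H2-O inhibits H2-DM. Ciita is the coactivator that switches these genes on together. It does not bind DNA itself but is recruited by factors, among them RFX and NF-Y, that sit on the X and Y boxes shared by class II promoters. The gene is active without stimulation in B cells and dendritic cells, is induced by interferon-γ in monocytes and macrophages, and is silenced when B cells become plasma cells.

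Both libraries held live CD45+ cells of the colonic lamina propria (LP) of C57BL/6 mice aged 8 to 10 weeks. All mice had been given dextran sulfate sodium (DSS), which injures the colonic epithelium, in their drinking water, so an untreated colon was not measured. The WT library came from 5 pooled wild-type mice and the Ring1AKO library from 5 pooled mice with the Ring1a gene (symbol Ring1) knocked out in all cells. Ring1a is a ubiquitin ligase subunit of Polycomb repressive complex 1. With 1 pooled library per genotype there was no replicate check, no test was run, and genotype and library preparation cannot be told apart. The values below are UMIs per 1000000 UMIs of the class in that library (CPM), ratios are log2 of the library labelled Ring1AKO over the library labelled WT, and the range in parentheses is the exact 95% interval, which covers counting error only.

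The libraries held 74414511 and 81862096 UMIs (WT and labelled Ring1AKO), and 6005 and 7918 barcodes passed the filters, at a median of 6354 and 5035 UMIs. The 9 classes took 3095 and 4741 of these cells. B cells were 1157 cells (19.3%) in the WT library and 3496 cells (44.2%) in the library labelled Ring1AKO, and monocytes were 773 and 220 cells. Counts of the other classes, in the same order, were 545 and 457 plasma cells, 185 and 201 C1q macrophages, 92 and 83 type 1 conventional dendritic cells (cDC1), 76 and 61 type 2 cells (cDC2), 31 and 50 Fscn1 dendritic cells, 71 and 87 group 3 innate lymphoid cells (ILC3) and 165 and 86 group 2 cells (ILC2). Every marker of each class was detected in its gate in both libraries, but the gates were set on these same markers, so this is not a separate check. The Ring1 transcript itself was counted at 13.4 CPM and 11.8 CPM over all gated cells, and since a 3′ count can miss a deletion upstream, it did not check the label. Ptprc, which codes for CD45, was counted at 826 and 458 CPM. Of the kept barcodes, 11 were present in both libraries.

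In the GRCm38 annotation, 8 of the members lie in 224 kb of chromosome 17, the class II region of the H2 complex, within chr17:34092340-34316674. All are protein-coding genes. In order they are H2-Oa, H2-DMa, H2-DMb2, H2-DMb1, H2-Ob, H2-Ab1, H2-Aa and H2-Eb1, with H2-Aa alone on the minus strand. Ciita lies outside the complex, at chr16:10480059-10528418 on the plus strand, and Cd74 on a further chromosome. Ring1, the gene knocked out, lies on chromosome 17 too, before the span of the 8 members, at chr17:34020792-34024680 on the minus strand. Whether the altered Ring1 locus or the sequence around it acts on these members was not tested, and it cannot be told apart from loss of Ring1a. H2-DMb1 (chr17:34153072-34160230) and H2-DMb2 (chr17:34143307-34151555) are close copies, so how the counting divided reads between them is uncertain.

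The promoter stretches below show the X and Y box letters, where found, of 6 of the members, since these boxes are known to recruit Ciita to class II genes. They come from the RefSeq promoter windows on GRCm38.p6, which hold 250 bases before and 50 bases after each start site and were listed for 7 of the 10 members (not for H2-Ab1, Cd74 or Ciita). Each is printed 5′ to 3′ on the strand of its gene, and capitals mark the Y box core ATTGG and the X1 box core AGNAACNG. The stretches of H2-DMb1 and H2-DMb2 are cut short at the X1 box and do not reach the Y box.
H2-Aa: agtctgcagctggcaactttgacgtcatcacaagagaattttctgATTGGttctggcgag
H2-Eb1: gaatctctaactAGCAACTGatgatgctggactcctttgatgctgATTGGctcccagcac
H2-Oa: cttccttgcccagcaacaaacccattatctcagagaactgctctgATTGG
H2-Ob: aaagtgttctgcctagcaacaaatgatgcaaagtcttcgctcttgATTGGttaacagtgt
H2-DMb1: gaggtttacctAGTAACTGatgatgctagg
H2-DMb2: gaggtttacctattaaccgatgatgctagg
They lie at chr17:34287857-34287916 on the minus strand (H2-Aa) and on the plus strand at chr17:34305763-34305822 (H2-Eb1), chr17:34092291-34092340 (H2-Oa), chr17:34238803-34238862 (H2-Ob), chr17:34153085-34153114 (H2-DMb1) and chr17:34145114-34145143 (H2-DMb2). The H2-DMb1 and H2-DMb2 stretches lie inside the gene spans given above, since the RefSeq start sites from which their positions are counted lie downstream of the first base of those spans.

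All 7 members with a window had the letters ATTGG upstream on the strand of the gene. Together they had 8 windows. The searched letters were found in a single window of each member, so the remaining window held none of them. In 6 of the members ATTGG began within 100 bases of the start site, at -48 in H2-Aa, -59 in H2-Eb1, -61 in H2-DMb1, -90 in H2-DMb2, -43 in H2-Oa and -57 in H2-Ob. In H2-DMa the letters began at -198. The letters are common, since 37.4% of all 32851 windows held ATTGG on either strand, and 17.4% held AGNAACNG. The X1 letters stood upstream on the strand of the gene in H2-Eb1 at -92 and in H2-DMb1 at -95. In the 30 bases printed for the H2-DM β chain copies, 28 bases were identical and H2-DMb2 differed from H2-DMb1 by G13T and T18C, counted from 1 at the 5′ end. Both lie within the stretch of the X1 letters. T18C falls on an N of AGNAACNG, where any base matches, so only G13T removes the match. The searched letters do not overlap each other. A match is a description of letters and not of a bound site, and the absence of a match says only that these letters are not in the window.

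The classical chains were highest in dendritic cells and C1q macrophages, lower in B cells and monocytes, and lowest by far in plasma cells and innate lymphoid cells. The plot of member levels by class gives all 10 genes in both libraries. H2-Aa, the α chain of I-A, was counted in the WT library at 8579 (8452 to 8708) CPM in cDC1, 8487 (8313 to 8663) CPM in cDC2 and 8084 (7926 to 8243) CPM in C1q macrophages, where the cDC1 and cDC2 intervals overlap and that of the macrophages lies just below. It stood at 6659.7 (6412 to 6915) CPM in Fscn1 dendritic cells, the migratory dendritic state that carries antigen to lymph nodes. The steps down to B cells at 3924 (3874 to 3974) CPM and monocytes at 2359.8 (2325 to 2395) CPM were each wider than the intervals. Below these came ILC3 at 211 CPM, plasma cells at 88.4 CPM and ILC2 at 64.9 CPM.

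**Figure D1:**
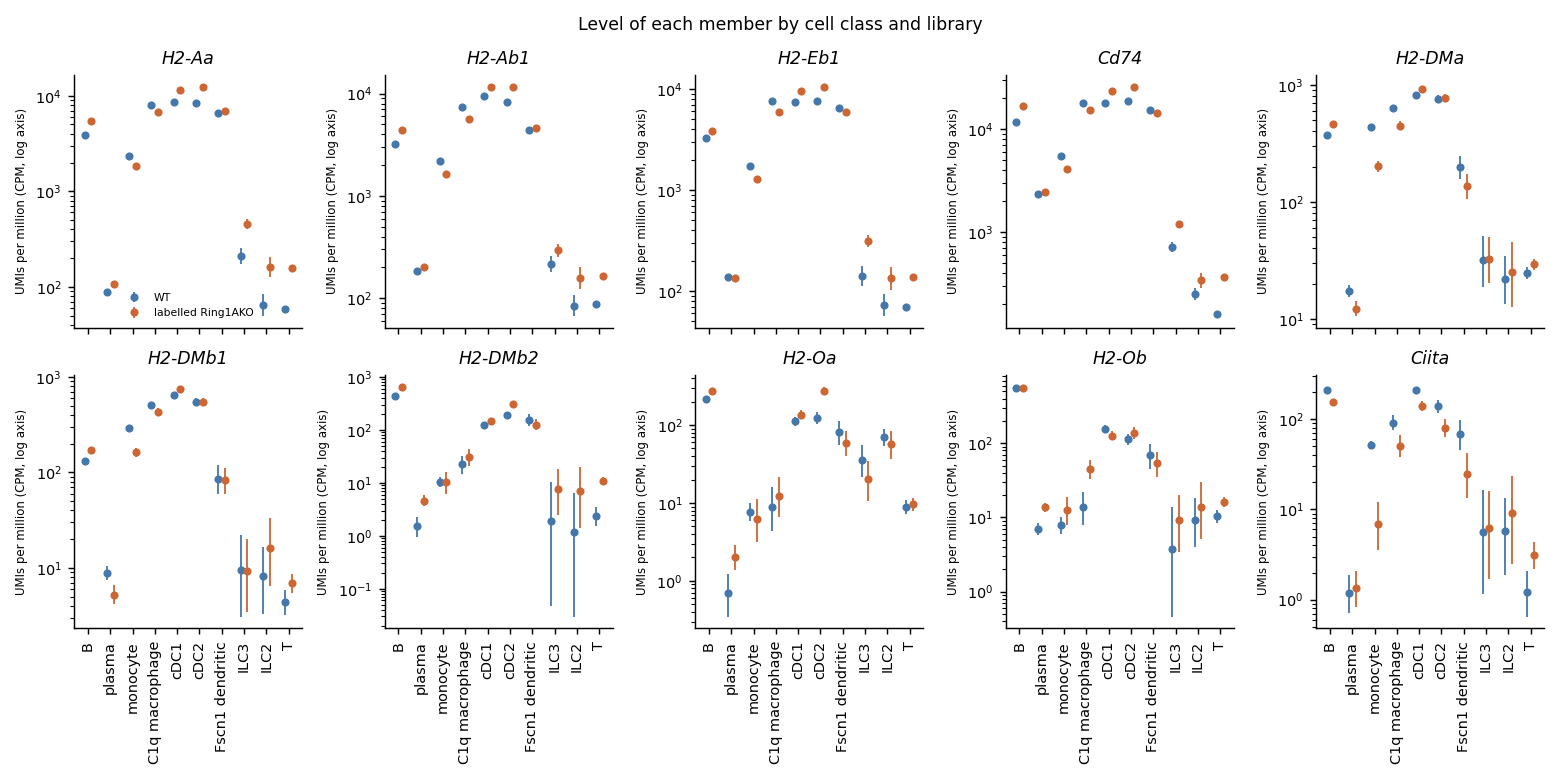
CPM of each of the 10 members (1 panel a gene, log axis) in the 9 classes and T cells in the WT library and the library labelled Ring1AKO, with exact 95% counting intervals as bars. H2-Aa, H2-Ab1 and H2-Eb1 are highest in the dendritic and C1q macrophage gates, next in B cells and monocytes, and lower in plasma cells, innate lymphoid cells and T cells in both libraries, while Cd74 in the library labelled Ring1AKO is higher in B cells than in C1q macrophages and Fscn1 cells.

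In the library labelled Ring1AKO, H2-Aa was counted at 12381 CPM in cDC2, 11465 CPM in cDC1, 6911 CPM in Fscn1 cells, 6733 CPM in C1q macrophages, 5495 CPM in B cells and 1844 CPM in monocytes. Its log2 ratio was therefore above 0 in cDC2 at 0.54 (0.50 to 0.59), in B cells at 0.49 (0.47 to 0.51) and in cDC1 at 0.42 (0.39 to 0.45). It was below 0 in monocytes at -0.36 (-0.41 to -0.30) and in C1q macrophages at -0.26 (-0.31 to -0.22). Fscn1 cells stood at 0.05 (-0.02 to 0.13), an interval that spans 0. The libraries thus differed in opposite directions in the monocyte and macrophage gates and in the B, cDC1 and cDC2 gates.

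H2-Ab1, the partner of H2-Aa, went from 3187 to 4439 CPM in B cells, a log2 ratio of 0.48 (0.45 to 0.50). It went from 9443 to 11508 CPM in cDC1 and from 8231 to 11628 CPM in cDC2. In monocytes it was 2197 CPM in the WT library and 1623 CPM in the library labelled Ring1AKO, a log2 ratio of -0.44 (-0.50 to -0.38), and in C1q macrophages the values were 7453 and 5686 CPM. The I-E β chain H2-Eb1 gave the same signs. Its log2 ratio was 0.26 in B cells, 0.34 in cDC1, 0.45 in cDC2, -0.40 in monocytes and -0.35 in C1q macrophages. In Fscn1 cells it was -0.13 (-0.21 to -0.05), from 6447 to 5890.3 CPM.

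Cd74 gave the most UMIs of the 10 members in every one of the 9 classes. It was counted at 18418 CPM in cDC2, 17836 CPM in cDC1 and 17648 CPM in C1q macrophages of the WT library, and at 25671, 23394 and 15196 CPM in the library labelled Ring1AKO. B cells held 11616 and 16791 CPM, a log2 ratio of 0.53 (0.52 to 0.54), and monocytes 5450.4 and 4079 CPM, a log2 ratio of -0.42 (-0.45 to -0.38). A 3′ count does not compare levels between genes well, so ratios between members are set side by side only across classes and libraries. In B cells, monocytes, C1q macrophages and the 3 dendritic classes, Cd74 gave between 2.08 and 2.96 UMIs per H2-Aa UMI in the WT library and between 2.04 and 3.06 in the library labelled Ring1AKO. Plasma cells, in which Cd74 remained at 2347 and 2419.9 CPM while H2-Aa was at 88.4 and 106 CPM, gave 26.5 (25.2 to 28.0) and 22.7 (21.6 to 23.9) Cd74 UMIs per H2-Aa UMI.

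**Figure D2:**
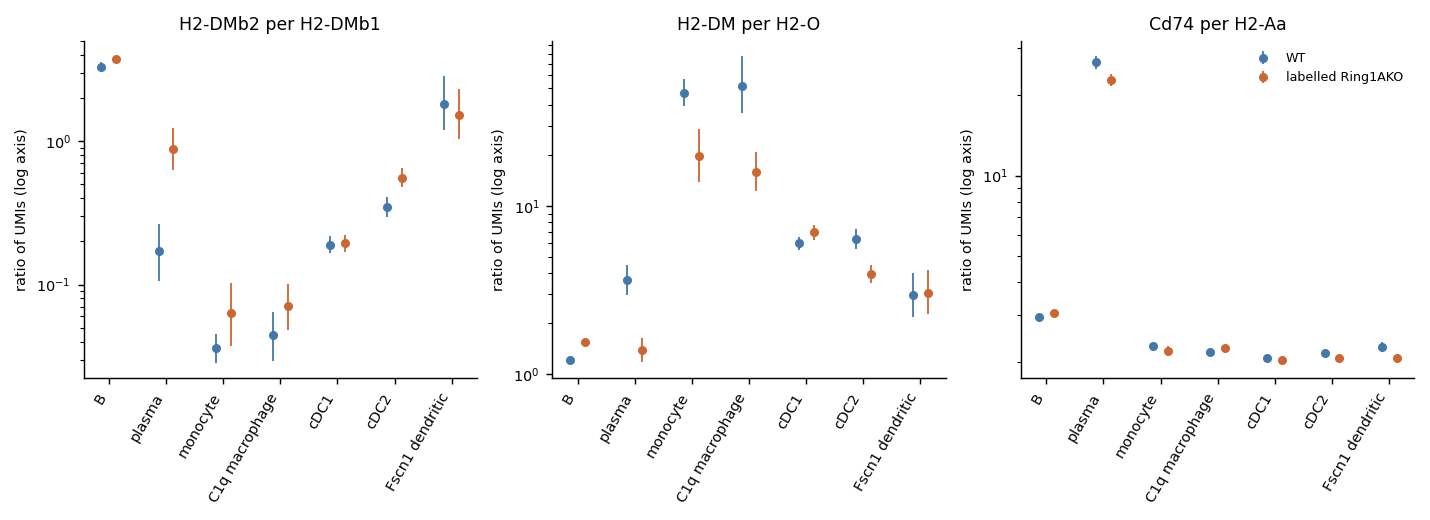
UMIs of H2-DMb2 per H2-DMb1, of the H2-DM chains per H2-O chains and of Cd74 per H2-Aa (log axes) in 7 classes of both libraries, with exact 95% counting intervals. B cells and Fscn1 cells sit above 1 for H2-DMb2 per H2-DMb1 while monocytes and C1q macrophages sit below 0.1, and Cd74 per H2-Aa is near 2 or 3 outside plasma cells.

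H2-DMa, the α chain of the peptide editor, was highest in cDC1 at 821 (782 to 861) CPM and cDC2 at 760.1 (709 to 814) CPM in the WT library, neighbours whose intervals overlap. C1q macrophages held 632, monocytes 433, B cells 376 and Fscn1 cells 198 CPM. In the library labelled Ring1AKO it was 201 CPM in monocytes, a log2 ratio of -1.11 (-1.27 to -0.95). That was the largest fold among the H2-DM chains with at least 100 UMIs in any of the 9 classes. H2-DMb1 also stood lower there, at 293 and 162 CPM, a log2 ratio of -0.85 (-1.04 to -0.68). The log2 ratio of H2-DMa was -0.50 (-0.66 to -0.33) in C1q macrophages, -0.54 (-1.03 to -0.07) in Fscn1 cells, 0.18 (0.08 to 0.28) in cDC1, 0.01 (-0.14 to 0.16) in cDC2 and 0.31 (0.24 to 0.38) in B cells. The cDC1 interval ran above 0 and the cDC2 interval spanned it.

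The β chain copies divided the classes. H2-DMb2 gave 3.31 (3.06 to 3.59) UMIs per H2-DMb1 UMI in B cells of the WT library and 3.77 (3.62 to 3.93) in those of the library labelled Ring1AKO. In monocytes the ratio was 0.0360 (0.0283 to 0.0451) and 0.0638 (0.0373 to 0.103), and in C1q macrophages 0.0444 (0.0292 to 0.0648) and 0.0710 (0.0479 to 0.102). Myeloid cells thus counted almost only H2-DMb1, and B cells mostly H2-DMb2. Dendritic cells lay between, at 0.190 and 0.195 in cDC1, 0.349 and 0.559 in cDC2, and 1.83 and 1.53 in Fscn1 cells. A shift between libraries beyond the intervals appeared in cDC2, B cells and plasma cells, the last at 0.171 and 0.885 on 24 and 69 H2-DMb2 UMIs. The ratio in cell-free barcodes (under 100 UMIs each) was 0.511 and 1.80. H2-DMb2 was at 63.9 and 198 CPM in those barcodes and at 1.51 and 4.64 CPM in plasma cells. The part of cell-free RNA in these shifts was not tested.

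H2-O, the inhibitor of H2-DM, was counted mainly in B cells and dendritic cells. H2-Ob, its β chain, was at 562 and 552 CPM in B cells, a log2 ratio of -0.03 (-0.08 to 0.03), the member nearest to 0 in that class. It was at 155 and 127 CPM in cDC1 and at 113 and 138 CPM in cDC2. The α chain H2-Oa was at 218 and 276 CPM in B cells. In cDC2 it was at 124 (104 to 147) CPM in the WT library and 275 (241 to 312) CPM in the library labelled Ring1AKO, a log2 ratio of 1.14 (0.83 to 1.46). After each cell was thinned to 2000 UMIs, 22.4% (13.6 to 33.4) and 41.0% (28.6 to 54.3) of cDC2 cells had an H2-Oa UMI (63.2% and 85.2% unthinned), against 1.29% and 1.78% of T cells. The 10 B cell markers used below summed to 27.1 and 34.5 CPM in the same cDC2 cells, under the level of H2-Oa alone in both libraries. The part of B cell RNA in the H2-Oa counts was not tested.

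The balance of editor to inhibitor differed between B cells and the macrophage lineage. H2-DM chains gave 1.21 (1.16 to 1.26) and 1.55 (1.52 to 1.59) UMIs per H2-O UMI in B cells, and 47.0 (39.1 to 56.9) and 19.7 (13.9 to 28.9) in monocytes. C1q macrophages gave 51.5 and 15.9, cDC1 5.98 and 6.95, and cDC2 6.33 and 3.93. In the macrophage gate H2-Ob was 17 UMIs in the WT library and 47 UMIs in the library labelled Ring1AKO (13.7 and 44.9 CPM). B cell transcripts moved with it in that gate. All 10 B cell markers were detected there in both libraries, at a sum of 87.9 and 203 CPM, and in monocytes all 10 were at 24.2 and 57.9 CPM. Their part in the H2-O counts was not tested.

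Ciita, the coactivator of the other members, was lower in the library labelled Ring1AKO in every antigen-presenting class in which it was counted at least 100 times, including those whose classical chains were higher. In the WT library its level was 210.2 (199 to 222) CPM in B cells and 209 (189.8 to 230.2) CPM in cDC1, which did not differ beyond their intervals. It was 139 (118 to 163) CPM in cDC2, 91.9 (75.8 to 110.4) CPM in C1q macrophages, 68.5 (45.5 to 99.0) CPM in Fscn1 cells and 51.9 (46.9 to 57.4) CPM in monocytes. The Fscn1 interval overlaps those of both its neighbours in this order. Plasma cells, in which the gene is known to be silenced, held 1.20 and 1.35 CPM on 19 and 20 UMIs. The WT value was close to the 1.21 CPM of T cells. In the library labelled Ring1AKO the plasma cell value (0.822 to 2.08) lay below the 3.11 (2.18 to 4.31) CPM of T cells. The 3′ counts do not tell apart the promoters from which Ciita is transcribed in different cells.

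Monocytes gave the largest Ciita difference. They held 384 Ciita UMIs in the WT library and 12 in the library labelled Ring1AKO, 51.9 (46.9 to 57.4) and 6.88 (3.55 to 12.0) CPM, a log2 ratio of -2.80 (-3.88 to -2.09). Thinned to 2000 UMIs, 9.66% (7.65 to 12.0) and 2.34% (0.763 to 5.37) of monocytes had a Ciita UMI (26.3% and 4.09% unthinned). T cells, used as a class that should hold little, had 0.490% and 0.712% at the same depth, so the monocytes of the library labelled Ring1AKO stood much nearer to that level than those of the WT library. The other classes differed by less. The log2 ratio was -0.85 (-1.36 to -0.38) in C1q macrophages, -0.78 (-1.22 to -0.37) in cDC2, -0.56 (-0.80 to -0.34) in cDC1 and -0.42 (-0.52 to -0.33) in B cells, where 33.5% and 25.7% of thinned cells had a UMI. In Fscn1 cells Ciita was 28 and 13 UMIs, under the 100 needed for a fold to be read.

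The proportion of Ciita to the chains it switches on differed between the libraries. Per 1000 UMIs of H2-Aa, H2-Ab1 and H2-Eb1 together, B cells held 20.3 (19.2 to 21.5) and 11.3 (10.9 to 11.8) Ciita UMIs, cDC1 8.21 (7.44 to 9.03) and 4.36 (3.83 to 4.94), and cDC2 5.71 (4.83 to 6.71) and 2.33 (1.82 to 2.95). In monocytes the values were 8.29 (7.48 to 9.16) and 1.44 (0.746 to 2.52), and in C1q macrophages 3.98 (3.28 to 4.78) and 2.76 (2.06 to 3.60). The value was lower in the library labelled Ring1AKO in all 5 classes, with intervals that did not overlap in 4 of them and overlapped in C1q macrophages.

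**Figure D3:**
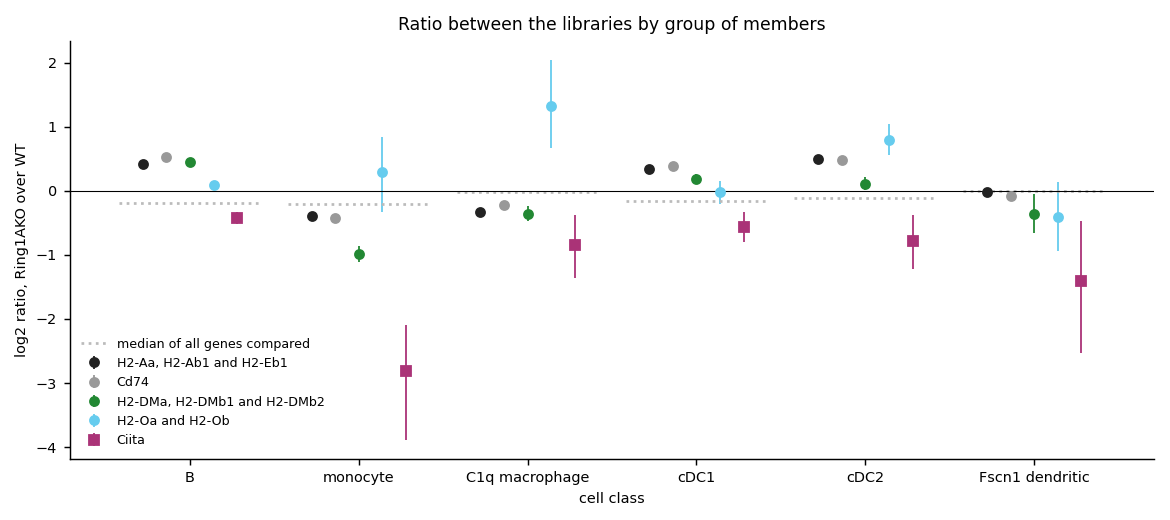
Log2 ratio of CPM (library labelled Ring1AKO over WT) of the classical chains, Cd74, the H2-DM chains, the H2-O chains and Ciita in 6 classes, with exact 95% counting intervals, a line at 0 and a dotted line at the median of all genes compared. Classical chains and Cd74 lie above 0 in B cells, cDC1 and cDC2 and below 0 in monocytes and C1q macrophages, while Ciita lies below 0 in all of them.

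Summed over the 10 members, the level was 23906 and 32874 CPM in B cells, a log2 ratio of 0.46 (0.45 to 0.47), beside a median over all 8684 genes compared in that class (100 or more UMIs) of -0.18. In cDC1 it was 0.36 (0.34 to 0.37) beside -0.16, and in cDC2 0.48 (0.46 to 0.50) beside -0.11. Monocytes stood at -0.44 (-0.46 to -0.41) beside -0.20, and C1q macrophages at -0.28 (-0.30 to -0.26) beside -0.02. The summed levels of these classes were 45406 and 58074 CPM in cDC1, 44655 and 62259 CPM in cDC2, 12521 and 9239.7 CPM in monocytes, and 42040.5 and 34579 CPM in C1q macrophages. Plasma cells stood at 0.06 (0.04 to 0.07) beside -0.40 and Fscn1 cells at -0.05 (-0.09 to -0.02) beside 0.00. Requiring 5 markers for a gate moved the monocyte ratio to -0.69 and the Fscn1 ratio to -0.47, and weighting cells equally moved the C1q macrophage ratio to -0.45 and the plasma cell ratio to 0.41. The plasma cell ratio was 0.40 with immunoglobulin genes left out of the denominator.

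A member was called past the fold when its log2 ratio was at least 1 in size, counting only genes that reached 100 UMIs in the class when the libraries were added. In monocytes 2 of the 7 members read were lower past the fold (H2-DMa and Ciita), where 7.02% of all genes were, and 0 of 7 were higher, where 1.63% were. All 7 lay below 0, with a median of -0.44. In C1q macrophages all 7 members read also lay below 0, with a median of -0.35, and 0 were past the fold, where 2.16% of genes were lower and 1.34% higher. In cDC2, 1 of 10 members was higher past the fold (H2-Oa), where 1.7% of genes were higher and 3.56% lower, and the median of the members was 0.47. None of the 10 members was past the fold in B cells, where 3.77% of genes were lower and 0.322% higher, or in cDC1, where the shares were 5.02% and 1.1%. Their medians were 0.36 and 0.26. Of 7 members read in plasma cells and 6 in Fscn1 cells 0 were past the fold, beside 9.74% lower and 0.306% higher among plasma cell genes and 2.38% and 2.46% among Fscn1 cell genes. In ILC3, 2 of 4 members (H2-Aa and H2-Eb1) were higher past the fold, where 1.52% of genes were higher and 1.73% lower, and in ILC2, 1 of 4 (H2-Aa), where 1.88% were higher and 4.4% lower. The calls in ILC3 and ILC2 were lost when cells with 50 or more member UMIs were left out, as given with those cells below.

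Monocytes entering the inflamed colon gain class II and then C1q as they become macrophages, so the monocyte gate was also divided by its C1qa, C1qb and C1qc UMIs, a division made after the levels had been seen. Monocytes with 0 C1q UMIs were 622 and 181 cells. Their classical chains summed to 5166 and 4866 CPM, and H2-Aa alone was 1931 and 1860.2 CPM. In the same cells the H2-DM chains were 653 (632 to 674) and 378 (347 to 411) CPM, and Ciita 50.3 (44.7 to 56.4) and 7.42 (3.71 to 13.3) CPM on 290 and 11 UMIs. The gap in H2-DM and Ciita was thus present without C1q transcripts, while the gap in the pooled classical chain level was small there. A pooled level can rest on a minority of cells, and levels per cell were not tested in this division. Over the whole monocyte gate, thinned to 2000 UMIs, H2-Aa was detected in 57.7% and 34.6% of cells (WT and labelled Ring1AKO). In monocytes with 4 or more C1q UMIs (82 and 15 cells) the 10 members summed to 21082 and 12027 CPM, and Ciita was 64 UMIs against 1. With 1 to 3 C1q UMIs (69 and 24 cells) the sum was 17534 and 5738 CPM. Ciita was 30 UMIs (45.2 CPM) against 0 UMIs there, a count whose exact upper limit was 24.4 CPM. With 0 C1q UMIs the sum was 10507 and 9387 CPM, so it rose at each step in the WT library only. The division used C1q UMIs without thinning. The median depth of cells with 1 to 3 C1q UMIs was 10211 and 4963.5 UMIs, so the groups of the libraries are not alike in depth.

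Cells within a class differed widely in the monocyte gate and little in the B cell gate. The median B cell held 259 member UMIs per 10000 UMIs in the WT library and 340.3 in the library labelled Ring1AKO, with the 10th and 90th percentiles at 178 and 349 and at 239.9 and 460.2. The median monocyte held 49.3 and 8.63, and the 10th to 90th percentile ran from 3.51 to 335 and from 2.81 to 286. The monocyte gate thus held cells with almost no class II transcripts beside cells at the level of B cells in both libraries, and the middle of the gate was at the low end in the library labelled Ring1AKO. C1q macrophages had medians of 404 and 271 and 10th percentiles of 153 and 19.7. cDC1 cells had medians of 418 and 579, and cDC2 cells of 471 and 634.

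**Figure D4:**
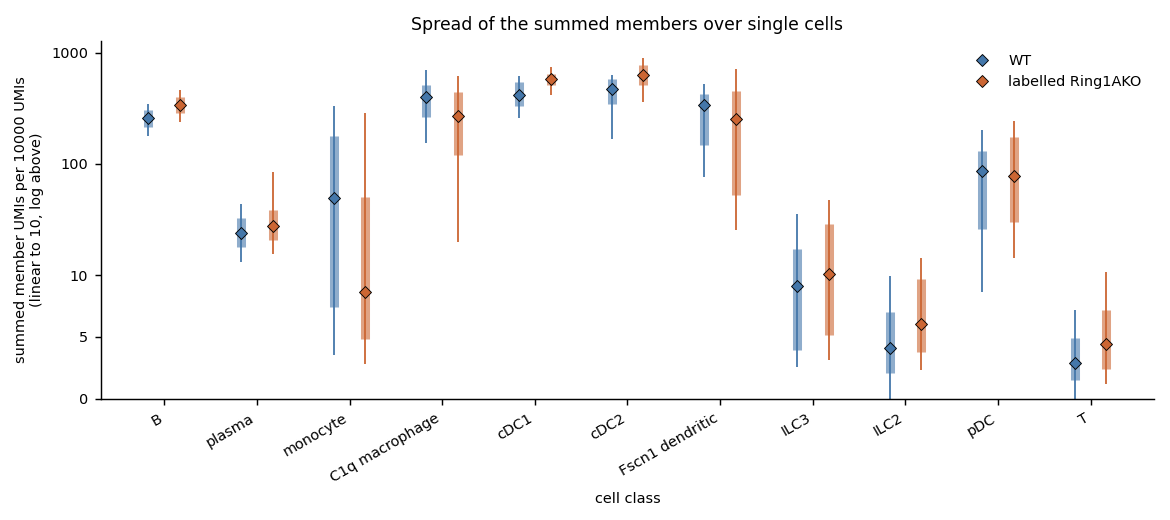
Summed member UMIs per 10000 UMIs of each cell (axis linear to 10, log above) in 11 classes of the 2 libraries. Diamonds are medians, thick bars the 25th to 75th and thin bars the 10th to 90th percentile. B cells and cDC1 form narrow, high distributions. The cDC2 cells are also high, but in the WT library they spread more widely, from 167 to 634 at the 10th and 90th percentile. The monocyte gate spans from under 10 to above 280 in both libraries.

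Plasma cells kept low class II levels, with a median of 24.0 and 27.8 member UMIs per 10000 and a 90th percentile of 43.6 and 83.9. The gate was divided, after the levels had been seen, by whether a cell held a UMI of the cycling genes Mki67 or Top2a, since freshly formed plasmablasts still divide. In cells with such a UMI (219 and 91 cells) H2-Aa was 102 and 164 CPM, and without 1 (326 and 366 cells) it was 78.1 and 89.9 CPM. H2-Aa was higher in the cycling cells of both libraries.

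ILC3 of the lymphoid tissue inducer kind, which carry the chemokine receptor Ccr6, are known to present antigen through class II. In the ILC3 gate the 10 members summed to 1373 (1275 to 1476) and 2343 (2227 to 2464) CPM, a log2 ratio of 0.77 (0.64 to 0.90). H2-Aa was 211 and 453 CPM, H2-Eb1 141 and 312 CPM and Cd74 715 and 1200.3 CPM. A few cells held a large share of the members' UMIs in the library labelled Ring1AKO. In the library labelled Ring1AKO 6 of 87 ILC3 had at least 50 member UMIs each and held 40.9% of the members' UMIs, and 0 of 71 did in the WT library, where the highest cell had 48. This count of 50 was set after the levels had been seen. Of the 6 cells, 5 had a Ccr6 UMI, and 0 had 3 or more B cell markers or 3 or more myeloid markers, the signs of a doublet that were counted. Without them the sums were 1373 (1275 to 1476) and 1486 (1389.9 to 1586) CPM, a log2 ratio of 0.11 (-0.03 to 0.26). With the 6 cells kept, ILC3 with a Ccr6 UMI (31 and 42 cells) summed to 1347 (1203 to 1503) and 3481 (3277 to 3694) CPM. Those without a Ccr6 UMI (40 and 45 cells) summed to 1394 (1262 to 1535) and 1279 (1160.3 to 1406) CPM. Since 5 of the 6 cells were in the Ccr6 group, its higher level includes them, and the division was not tested without them. Ciita was at 3 and 4 UMIs in the gate, too few to compare.

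ILC2 showed 1 member out of step with the others. H2-Oa was counted there at 69.5 (53.1 to 89.5) and 57.3 (37.1 to 84.7) CPM, 31.9% and 20.8% of the level in B cells and 169% and 63.5% of that in cell-free barcodes (under 100 UMIs each). The classical chain H2-Aa was 64.9 and 163 CPM in the same cells, 1.65% and 2.96% of its B cell level. With cells thinned to 2000 UMIs, 11.5% (7.08 to 17.4) and 9.30% (4.10 to 17.5) of ILC2 had an H2-Oa UMI, against 1.29% (0.797 to 1.96) and 1.78% (1.20 to 2.53) of T cells, at median depths before thinning of 5038 and 4835 UMIs in ILC2 and 5680 and 5598 UMIs in T cells. Its partner H2-Ob was only 9.27 and 13.8 CPM there, so H2-Oa gave 7.50 (3.57 to 18.2) and 4.17 (1.67 to 12.4) UMIs per H2-Ob UMI, against 0.388 and 0.499 in B cells and 0.865 and 0.599 in T cells. H2-Oa was 35.8 and 20.2 CPM in ILC3, 8.94 and 9.68 CPM in T cells and 1.19 and 14.0 CPM in neutrophils. The H2-Aa difference between the libraries in ILC2, a log2 ratio of 1.32 (0.80 to 1.86), was 56 against 71 UMIs. It was no longer past the fold with the cell-free profile subtracted (0.27) or without the 1 ILC2 of at least 50 member UMIs (0.86). The 10 B cell markers moved with it from a sum of 76.5 CPM (7 detected) to 126 CPM (10 detected). In the WT library 41 of those 66 UMIs were Ralgps2, and without that gene, left out after its values were seen, the sum went from 29.0 to 106 CPM. Their part in it was not tested. Leaving out that cell, which was in the library labelled Ring1AKO, brought the sum of the members there from 924 to 697 CPM, against 589 CPM in the WT library. The log2 ratio of that sum, 0.65 (0.46 to 0.84), became 0.24 without that cell and -1.22 when the cell-free profile was subtracted. The amount subtracted was set by Cd79a, at only 6 and 17 UMIs in ILC2 with that cell kept, so the value of -1.22 rests on few counts.

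Mouse T cells make little or no class II, so the members counted in the 1637 and 1704 T cells served as the measure of carry-over. They summed to 427 (415 to 439) and 899 (882 to 917) CPM, 1.79% and 2.73% of the level in B cells of the same library. Markers of B cells gave the reference. Over 10 of them, which code for B cell receptor parts and B cell transcription factors among others, the median T cell level was 0.472% of the B cell level in the WT library (range 0.103% to 8.23%) and 1.24% in the library labelled Ring1AKO (range 0.632% to 7.93%). Cd79a alone was at 0.465% and 1.22%. The median over the members was 1.99% and 3.22%, above the median of the B cell markers in both libraries. The 2 medians are not like for like. The summed members were higher in cDC1 and C1q macrophages than in B cells, while the B cell markers were far below their B cell level there. Whether the gap goes beyond carry-over was not tested. The upper end of the markers' range was Ralgps2 alone in each library, and the next highest marker, Cd79b, was at 1.85% and 2.45%, so that the medians of the members lay above the other 9 markers.

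**Figure D5:**
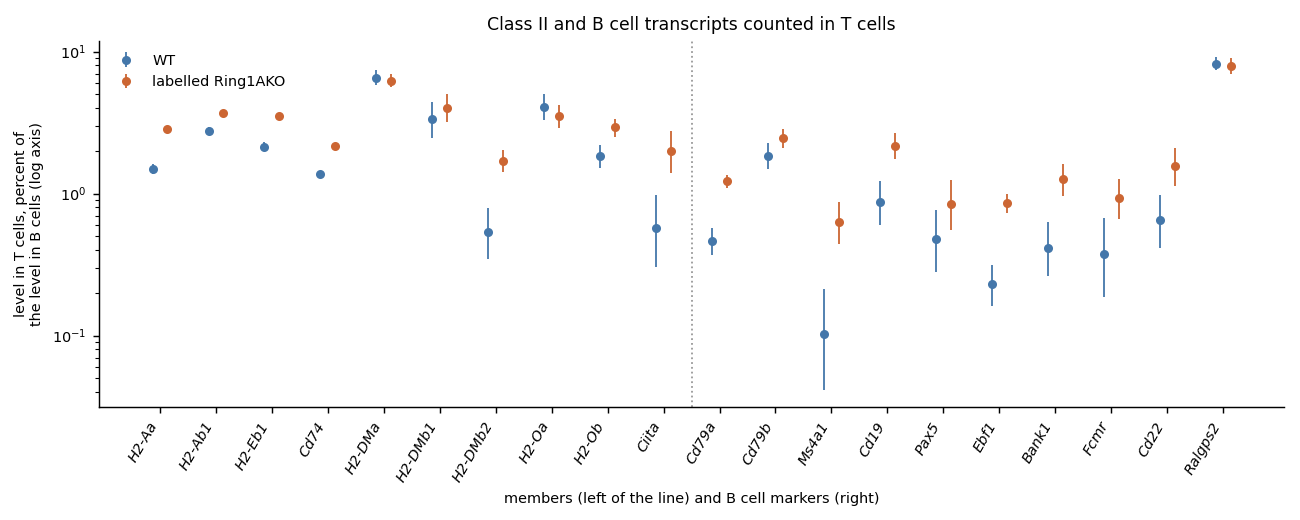
Level in T cells as a percentage of the level in B cells of the same library (log axis) for the 10 members and the 10 B cell markers, in the WT library and the library labelled Ring1AKO. The members sit at medians of 1.99% and 3.22% and the B cell markers at 0.472% and 1.24%.

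In T cells the ratio of the 2 H2-DM β chains lay near that of cell-free RNA and below that of B cells. Other pairs of members were mixed, near the cell-free ratio in some cases and apart from it in others. These ratios include the T cells with many member UMIs described below, and the source of the UMIs was not tested. H2-DMb2 gave 0.532 (0.314 to 0.882) UMIs per H2-DMb1 UMI in T cells of the WT library and 1.59 (1.19 to 2.13) in those of the library labelled Ring1AKO. In cell-free barcodes the ratio was 0.511 (0.463 to 0.563) and 1.80 (1.66 to 1.94), and in B cells 3.31 and 3.77. For the H2-O chains, H2-Oa per H2-Ob was 0.865 (0.651 to 1.15) and 0.599 (0.470 to 0.761) in T cells, against 0.331 and 0.398 in cell-free barcodes and 0.388 and 0.499 in B cells. The T cell value lay above both in the WT library, and in the library labelled Ring1AKO its interval held the B cell value. H2-DMa per H2-Aa was 0.424 (0.366 to 0.490) and 0.187 (0.166 to 0.210) in T cells. It was 0.120 and 0.0849 in cell-free barcodes and 0.0958 and 0.0847 in B cells, so the T cell value lay above both in each library. H2-Eb1 per H2-Aa was 1.20 (1.07 to 1.33) and 0.875 (0.817 to 0.936) in T cells. Cell-free barcodes gave 1.04 and 0.874, and B cells 0.827 and 0.706. H2-Ab1 per H2-Aa was 1.52 (1.38 to 1.69) and 1.06 (0.993 to 1.13) in T cells. Cell-free barcodes gave 1.19 and 0.990, and B cells 0.812 and 0.808. Cd74 per H2-Aa was 2.72 (2.48 to 2.99) and 2.35 (2.22 to 2.48) in T cells. Cell-free barcodes gave 2.56 and 2.59, and B cells 2.96 and 3.06. The members made up 10154 and 13995 CPM of cell-free RNA, and T cells held 4.20% and 6.42% of that level. The summed B cell markers in T cells were at 7.72% and 5.43% of their cell-free level. In the WT library 368 of the 702 marker UMIs of T cells were Ralgps2. As medians over genes, the members were at 3.89% and 6.70% and the B cell markers at 4.24% and 4.28%. A small number of T cells held a large share of the members' UMIs. In the WT library 6 T cells had 50 or more member UMIs and held 22.0% of the members' UMIs, and in the library labelled Ring1AKO 16 did and held 46.2%. Of these, 6 and 15 had at least 3 B cell or at least 3 myeloid markers. Without them the T cell level was 335 (324 to 346) and 491 (479 to 504) CPM, a log2 ratio of 0.55 (0.49 to 0.61) in place of 1.07 (1.02 to 1.12).

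The genes that act on the members were read from lists. Among 11 inducers of Ciita, Irf1, an interferon-induced transcription factor that acts at a Ciita promoter, was lower past the fold in each of B cells, plasma cells, monocytes, C1q macrophages, cDC1 and cDC2. In monocytes it was 427 and 96.9 CPM, a log2 ratio of -2.13 (-2.37 to -1.92). The related factors Irf2 and Irf8 were also lower past the fold there, at -1.05 (-1.39 to -0.74) and -2.30 (-2.63 to -2.02), and Irf8 is at the same time a marker in the cDC1 list. The count lower past the fold was 3 of 10 in monocytes, beside 7.02% of all genes. It was 1 of 11 in B cells, 1 of 10 in plasma cells, 1 of 8 in C1q macrophages, 1 of 9 in cDC1 and 1 of 9 in cDC2, each time Irf1, beside 3.77%, 9.74%, 2.16%, 5.02% and 3.56% of all genes. In plasma cells 1 of 10 is at the share of all genes. It was 0 of 5 in ILC2, 0 of 5 in Fscn1 cells and 0 of 4 in ILC3, and 0 were higher in any of the 9 classes. For Irf1 the log2 ratio was -1.03 in B cells, -1.27 in plasma cells, -1.10 in C1q macrophages, -1.02 in cDC1 and -1.98 in cDC2.

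The next list held the promoter-bound factors that recruit Ciita. Only 3 of its genes were read in cDC1 and 1 each in C1q macrophages, cDC2 and ILC2. The size of the difference is therefore not compared between this list and the inducers. Of the 7 genes of RFX, NF-Y and CREB, 0 of 7 were past the fold in B cells and in plasma cells and 0 of 5 in monocytes. Creb1, the 1 gene of the list read in cDC2, was lower past the fold there at -1.01 (-1.70 to -0.41), beside 3.56% of all genes. In the other classes in which any was read 0 were past it (none was read in Fscn1 cells and ILC3). Among 4 repressors of Ciita, 1 of 2 read in monocytes was lower past the fold, beside 7.02% of all genes. It was Socs1, which dampens cytokine signals, at -2.36 (-3.10 to -1.80). In the other classes in which any was read 0 were past the fold (none was read in Fscn1 cells). Among 10 genes of antigen processing, Ctsl, an endosomal protease, was higher in B cells at 1.03 (0.58 to 1.58), 1 of 10 beside 0.322% of all genes. Sppl2a, which cleaves the Cd74 remnant, was lower in plasma cells at 30.1 and 15.0 CPM, a log2 ratio with an interval of -1.24 to -0.77. That was 1 of 9 read, near the 9.74% of all genes lower there. In the other 7 classes 0 were past the fold. The lysosomal proteases and Ifi30, a thiol reductase of the loading compartment, were thus not past the fold in monocytes.

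Of 8 genes of class II turnover, Marchf1, the ubiquitin ligase that removes class II from the surface, was lower in monocytes at -1.48 (-2.28 to -0.88). That was 1 of 6 read, beside 7.02% of all genes. Cd63, a tetraspanin of the loading compartment, was higher in monocytes at 1.30 and in plasma cells at 1.22. Each was 1 of 6 read, beside 1.63% and 0.306% of all genes. The other classes had 0 past the fold. Among 6 costimulation genes, Cd80 was lower in B cells at -1.95 (-2.50 to -1.43), Cd40 in plasma cells at -2.15 (-3.03 to -1.47) and Cd274 in monocytes at -1.04 (-1.20 to -0.89). These were 1 gene each of the 6, 4 and 5 read, beside 3.77%, 9.74% and 7.02% of all genes. A single gene of so short a list says little about the list. In the other classes in which any was read 0 were past the fold (none was read in ILC2). Of the other genes of the class II region, which include class I processing genes, 4 of 5 read in monocytes were lower past the fold, where 7.02% of all genes were and the median of all genes was -0.20. Tap1 and Tap2, which form the peptide transporter, were at -2.53 (-2.93 to -2.20) and -1.56 (-1.97 to -1.21), and Psmb8 and Psmb9, the immunoproteasome subunits, at -1.33 (-1.49 to -1.18) and -1.80 (-2.07 to -1.56). In C1q macrophages 1 of 5 was, Tap1 at -1.41 (-1.92 to -0.95), beside 2.16% of all genes, and in the other classes 0.

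Genes whose levels over classes were most like those of the summed members were named by their Pearson correlation over 28 class and library points, on log2(CPM + 1) among 8795 genes. The points of 1 library share cell-free RNA and the points of 1 class share their gate, so the correlations are a description. The 10 highest were Ifi30 (0.932), Tbc1d9 (0.907), Gm6377 (0.905), Plekho1 (0.903), Ly86 (0.901), Pkib (0.885), Kynu (0.878), Rassf4 (0.873), Gatm (0.867) and Erp29 (0.864). Of these, Ifi30 is the thiol reductase named above and Ly86 a partner of the receptor Cd180. Among the members themselves the value ran from 0.594 for H2-Oa to 0.993 for Cd74. Each member is itself part of the sum, Cd74 a large part, so these values are in part set by that overlap. For Ciita alone the 5 genes most alike were Gm6377 (0.867), Ifi30 (0.863), Plekho1 (0.861), Ly86 (0.843) and Cd83 (0.842), the last a surface protein that holds class II at the cell surface.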

How the data were processed

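The authors prepared droplet 3′ libraries from CD45+ LP cells, aligned the reads and deposited UMI counts per gene and barcode, unfiltered, with no normalization. Cell Ranger is named in the matrix header as version 4 and in the submitters' processing notes as 6.0.2. Genome builds also differ between sources (mm10 in the methods, mm39 in the processing notes), so coordinates here come from the GRCm38 annotation by matching gene identifiers. The matrices held 74414511 UMIs (WT) and 81862096 UMIs (labelled Ring1AKO).

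Barcodes with at least 1000 UMIs, at least 500 genes and under 5% mitochondrial UMIs were assigned to the list, among 16 marker lists, of which the largest share was detected, with at least 4 markers required (3 for epithelial and stromal cells). Ties (120 and 97 cells) were set aside, as were cells that also held at least 50% of an incompatible list (404 and 538 cells). Cells of the ILC2, ILC3 and natural killer cell gates with a Cd3e UMI were set aside too (15 and 11 cells). No doublet caller was run. UMIs were summed per class and library and divided by the class total. Poisson and binomial intervals were exact, and 1 UMI was added to each sum before the log2 ratio. A gene was compared in a class where the libraries together held 100 or more of its UMIs, and none was tested, since each genotype had 1 library. Shares of cells in which a gene was seen were taken after drawing 2000 UMIs from each cell, leaving out shallower cells. Cell-free barcodes had under 100 UMIs. The script was checked on simulated counts.

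All 10 members were named, with those genes of the pathway lists that were past the fold, except a list gene that is not reported here, and the genes most correlated with the summed members and with Ciita. The members and lists were chosen with earlier results of these data known. Alternatives were the cell filters, the number of markers, an upper limit on genes per cell, the denominator, the mean over cells, subtraction of cell-free RNA and the thinning depth. The cell-free profile was scaled, before subtraction, by the Cd79a level of the class over that of the cell-free barcodes. Python 3.11.15, numpy 2.4.6, scipy 1.17.1, pandas 2.3.3 and matplotlib 3.10.9 were used.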

Additional observations from a re-analysis of the deposited data

Results flagged for a closer look

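The summed members differed between the libraries in opposite directions in different classes. Their log2 ratio was 0.46 in B cells, 0.36 in cDC1 and 0.48 in cDC2, and it was -0.44 in monocytes and -0.28 in C1q macrophages. Each class had 1 library per genotype, so the difference between the classes was not tested.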

How the results depend on the processing

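With 1 library per genotype, no alternative could show the spread between animals. No paired analysis was possible because WT and Ring1AKO had a lone library each. Of 63 ratios of the summed members under another setting, 62 had the sign of the reported value and 38 lay within its counting interval. All 72 ratios of single members kept their sign. Of the 6 members past the fold, 41 of 45 values under another setting were still past it. The exceptions were in ILC3 without the cells of 50 or more member UMIs (H2-Aa 0.39, H2-Eb1 0.33) and, for H2-Aa in ILC2, that setting (0.86) and subtraction of the cell-free profile (0.27). Leaving out those cells was chosen after seeing the data, and in ILC3 and ILC2 it removed cells of the library labelled Ring1AKO alone. Low depth limits the Ciita values, with 12 UMIs in the monocytes and 13 in the Fscn1 cells of the library labelled Ring1AKO.

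The following log2 ratios of the summed members moved beyond their counting interval, and the cause was not tested. With cells of fewer than 4000 genes only, they were 0.42 in B cells, 0.11 in plasma cells, -0.41 in monocytes, 0.40 in cDC1, 0.41 in cDC2 and -0.12 in Fscn1 cells. As a mean over cells they were 0.40 in B cells, 0.41 in plasma cells, -0.50 in monocytes, -0.45 in C1q macrophages, 0.42 in cDC1, 0.56 in cDC2 and -0.099 in Fscn1 cells. With 5 markers required they were 0.029 in plasma cells, -0.69 in monocytes, 0.34 in cDC1, 0.56 in cDC2, -0.47 in Fscn1 cells and 0.95 in ILC3. Without immunoglobulin genes in the denominator the plasma cell value was 0.40. With the cell-free profile subtracted they were -0.48 in monocytes, -0.31 in C1q macrophages and -1.22 in ILC2, the 1 change of sign. Without the cells of 50 or more member UMIs they were 0.11 in ILC3 and 0.24 in ILC2. The T cell level as a percentage of the B cell level was, in the WT library, 1.73% with 5 markers, 1.61% as a mean over cells, 0.587% after subtraction and 1.40% without those cells. In the library labelled Ring1AKO it was 2.89% with cells under 4000 genes, 2.23% as a mean, 0.967% after subtraction and 1.49% without those cells.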

Other observations

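Plasmacytoid dendritic cells, which make type I interferon and present antigen poorly, were gated in 28 and 18 cells (WT and labelled Ring1AKO). Their 10 members summed to 9081 (8732 to 9439.7) and 11064 (10582 to 11563) CPM, between the levels of plasma cells and B cells in both libraries. H2-Oa was 31 and 11 UMIs there and H2-Ob 3 and 2 UMIs, so H2-Oa gave 10.3 (3.22 to 52.8) and 5.50 (1.20 to 51.1) UMIs per H2-Ob UMI. In ILC3 the counts were 19 and 13 UMIs of H2-Oa and 2 and 6 UMIs of H2-Ob, a ratio of 9.50 (2.29 to 84.1) and 2.17 (0.768 to 6.95). In both gates and in both libraries H2-Oa was counted more often than its partner, although the ILC3 interval of the library labelled Ring1AKO spans 1.

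Neutrophils, which make little class II, held 431 (387 to 477) and 1598 (1523 to 1675) CPM of the summed members. In the library labelled Ring1AKO 5 of 210 neutrophils had at least 50 member UMIs and held 64.7% of them, and all 5 had at least 3 B cell or at least 3 myeloid markers. Without these cells the level was 591 (545 to 640) CPM.

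T cells sorted by the number of the 10 B cell markers detected did not differ steadily in member level. These levels include the T cells with many member UMIs described above, 6 in the WT library and 16 in the library labelled Ring1AKO. Those cells held 22.0% and 46.2% of the members' UMIs in T cells, and 2 and 14 of them had at least 3 B cell markers. Without them the level over all T cells was 335 and 491 CPM. Levels by marker number without them were not tested. T cells with 0 markers held 407 (393 to 422) and 898 (874 to 923) CPM, those with 1 marker 406 (383 to 430) and 477 (456 to 500) CPM, those with 2 or 3 markers 363 (320 to 412) and 950 (901 to 1001) CPM, and the 5 and 16 cells with 4 or more markers 6368 (5619 to 7190) and 8151 (7773 to 8542) CPM.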
